A study of Mus musculus with 98 samples.

Results

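The small leucine-rich proteoglycans of the mouse thymic stroma were examined through 8 named genes, Dcn, Lum, Bgn, Ogn, Fmod, Prelp, Aspn and Podn, taken as a list of symbols. All 8 were found among the 22231 genes of the single-cell age series, among the 39179 Ensembl genes of the bulk sequencing and among the 20760 genes of the newborn genotype comparison. The study examined the makeup of the non-epithelial thymic stroma and its changes with age, and its state in a mouse model of DiGeorge syndrome.

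In the age series, live cells negative for Ter119, CD45 and EpCAM from wild-type C57BL/6 thymi were captured with the droplet 3' method, with 1 library of pooled litters at each of E12.5 and E13.5 and 2 libraries at each of E16.5, P0 (newborn) and W4 (4 weeks). The authors' labels divide its cells into 19 subtypes, among them 7 of capsular fibroblasts (CapFb), 4 of medullary fibroblasts (MedFb), pericytes (Pc), vascular smooth muscle (VSM), mesothelium (Mes), 3 of endothelium (EnA, EnC, EnVL), neural crest (NCC) and a proliferating subtype (Pr). In the bulk sequencing, RNA of sorted cells of wild-type mice was read at P0 and W4 in 6 libraries per population and age: CD31+ endothelium, Ly51+gp38- mural cells, gp38+CD26+ and gp38+CD26- fibroblasts, and cortical and medullary thymic epithelium (cTEC, mTEC), with mTEChi and mTEClo at W4 only. In the newborn comparison, stroma without the EpCAM exclusion was fixed and captured from 3 mice labelled Tbx1+/-Crkl+/- and 3 wild-type littermates. The first carry a lacZ allele of Tbx1 and a germline null of Crkl that was made by Cre recombination in the epiblast, so both losses affect every tissue and not the stroma alone.

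Small leucine-rich proteoglycans are secreted proteins whose curved leucine-rich repeats bind collagen fibrils, setting fibril diameter and spacing, and which also hold growth factors such as transforming growth factor β. Decorin (Dcn), biglycan (Bgn) and asporin (Aspn) form the first class, of which Dcn and Bgn carry chondroitin or dermatan sulfate chains. Lumican (Lum), fibromodulin (Fmod) and prolargin (Prelp) form the second, keratan sulfate type class, osteoglycin (Ogn) belongs to another class, and podocan (Podn) to a more distant one. In lymphoid organs such matrix is laid down mainly by the fibroblasts of capsule, septa and perivascular space.

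The genes lie in small clusters of the genome, and their positions are given in GRCm38. Dcn (10:97479609-97518143, plus strand) and Lum (10:97565128-97572703, plus strand) lie 47.0 kb apart. Prelp (1:133910304-133921414, minus strand) and Fmod (1:134037254-134048277, plus strand) lie 116 kb apart. Aspn (13:49544443-49567565) and Ogn (13:49608046-49624501), both on the plus strand, lie 40.5 kb apart inside the antisense gene Cenpp, with which Aspn shares 7 exonic bases and Ogn 0. Bgn (X:73483602-73495933, plus strand) and Podn (4:108014791-108096445, minus strand) have no other member on their chromosomes. Podn overlaps Scp2, Mir6397 and Gm23354, and Prelp overlaps Gm15851.

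The RefSeq promoter table (GRCm38.p6) held 7 entries for 6 of the genes, and Dcn and Lum were not among them. The 250 bases upstream of the start are shown for the neighbours Aspn and Ogn, whose levels differed 17.6- and 78.3-fold among fibroblast subtypes at W4, and for Prelp and Podn, which rose most after birth. Capitals mark matches to 5 motifs searched on both strands, spelled TATAAA (the TATA box), CCAAT (the CCAAT box), GGGCGG (the GC box of Sp1), TGANTCA (the AP-1 site) and GGAATG (the TEAD site). The intervals are chr13:49544193-49544442 (plus strand) for Aspn, chr13:49607765-49608014 (plus strand) for Ogn, chr1:133921402-133921651 (minus strand) for Prelp, and chr4:108030987-108031236 (Podn a) and chr4:108031955-108032204 (Podn b), both on the minus strand.
Aspn: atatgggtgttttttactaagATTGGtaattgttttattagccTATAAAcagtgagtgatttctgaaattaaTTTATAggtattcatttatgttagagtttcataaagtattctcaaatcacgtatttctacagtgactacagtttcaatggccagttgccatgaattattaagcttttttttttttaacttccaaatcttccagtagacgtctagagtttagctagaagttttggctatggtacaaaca
Ogn: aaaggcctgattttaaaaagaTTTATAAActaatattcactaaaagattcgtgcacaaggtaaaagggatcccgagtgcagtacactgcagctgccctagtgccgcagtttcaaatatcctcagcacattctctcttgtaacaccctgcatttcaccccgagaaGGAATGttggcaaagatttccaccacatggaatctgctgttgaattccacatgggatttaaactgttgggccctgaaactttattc
Prelp: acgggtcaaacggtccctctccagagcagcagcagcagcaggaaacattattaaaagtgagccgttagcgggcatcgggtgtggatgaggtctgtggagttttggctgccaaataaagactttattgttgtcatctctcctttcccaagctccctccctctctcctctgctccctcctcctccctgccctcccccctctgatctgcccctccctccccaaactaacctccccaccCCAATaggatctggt
Podn a: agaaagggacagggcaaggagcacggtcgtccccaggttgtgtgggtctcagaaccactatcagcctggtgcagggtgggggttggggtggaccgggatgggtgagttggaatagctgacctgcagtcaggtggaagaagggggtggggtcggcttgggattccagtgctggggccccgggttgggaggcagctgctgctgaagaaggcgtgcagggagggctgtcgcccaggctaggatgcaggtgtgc
Podn b: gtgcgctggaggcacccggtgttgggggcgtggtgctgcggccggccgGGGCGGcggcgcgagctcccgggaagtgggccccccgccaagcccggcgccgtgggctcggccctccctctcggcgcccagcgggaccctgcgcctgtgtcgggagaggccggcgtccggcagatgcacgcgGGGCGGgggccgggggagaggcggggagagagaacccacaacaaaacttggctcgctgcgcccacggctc
The Aspn and Ogn stretches were the poorest in G and C, at 30 and 42%, and both held TATAAA on both strands, with the 2 matches of Ogn overlapping each other. Prelp, with 55.6% of G and C, held CCAAT once on its own strand, Podn a held none of the 5 motifs at 64%, and Podn b held GGGCGG 2 times at 78%. The median GC content of 32851 promoters was 52.4%. Over those promoters, 12.4% held the TATA box letters on either strand, 33.8% the CCAAT box, 32.7% the GC box, 6.75% the AP-1 site and 12.6% the TEAD site.

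Sequencing depth was high for the age series and lower for the newborns. Libraries held 28583048 to 93040640 UMIs (transcript molecules counted once) in 1997 to 6587 cells for the age series, and 4978011 to 31418527 UMIs in 1687 to 5661 cells for the newborns. Of the 84 bulk libraries, 83 held 5785352 to 15852166 gene counts, while gp38+CD26+ W4 replicate 2 held 25702, with 4343 genes detected and a rank correlation of 0.498 with its own group and 0.518 with cTEC W4. That library was left out of tests, and results that rest on its group are given with and without it. Levels are in CPM, counts scaled to a common library total, and in single cells they come from the pooled UMIs of each subtype in each library, and p-values come from edgeR's quasi-likelihood test with Benjamini-Hochberg adjustment over all genes tested. The defining markers matched the labels, with Upk3b, Msln and Krt19 in Mes, Myh11 and Acta2 in VSM, Kcnj8 and Colec11 in Pc, and Pecam1 and Cdh5 in endothelium, although Rgs5, a pericyte marker, was higher in VSM than in Pc. Any pair of libraries shared 0 to 14 cell barcodes in the age series and 0 to 5 in the newborns.

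At W4 most of the family's UMIs lay in fibroblasts, but each member was spread over the subtypes in its own way. Because the subtypes were defined from the same counts, the differences between them are described and not tested. Dcn was high in all 11 fibroblast subtypes, Ogn almost only in capsular ones, Bgn highest in medullary ones, Aspn in CapFb4, CapFb2b and mural cells, and Fmod in mesothelium and smooth muscle.

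**Figure D1:**
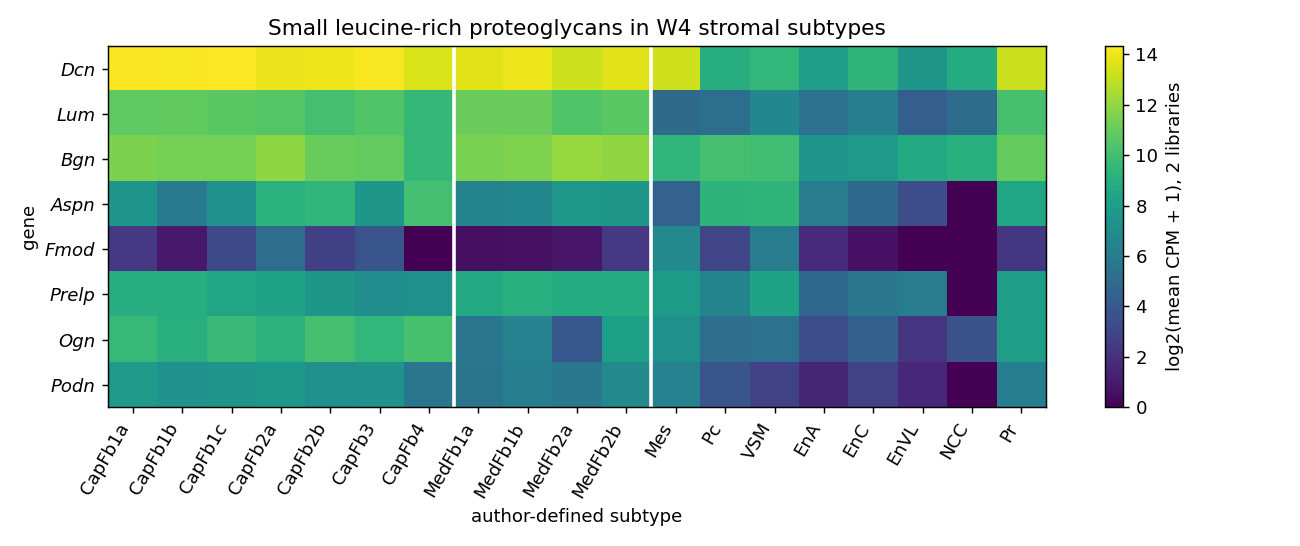
Mean level of the 8 genes in 19 subtypes at W4, as log2(CPM + 1) over 2 libraries, with white lines between capsular fibroblasts, medullary fibroblasts and the other subtypes. Dcn is between 9495 and 20567 CPM in every fibroblast subtype, Ogn falls from 1152 CPM in CapFb4 to 14.7 CPM in MedFb2a, and Fmod peaks in Mes at 106 CPM.

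Dcn, the collagen-binding prototype of the family, reached 20809.8 and 20325 CPM in the libraries of CapFb1c at W4, and 19806.5 and 19486 CPM in those of CapFb1a. It was lowest among fibroblasts in MedFb2a, at 8845 and 10145 CPM, so that the subtype means spanned 2.17-fold. CapFb1c, CapFb1a, CapFb3, CapFb1b and CapFb2b followed in this order without overlap of their libraries, while MedFb1b and CapFb2a overlapped, as did Mes and MedFb2a. Mes reached 9165 and 10956 CPM. Pc held 361 and 612 CPM, and the mean in EnC was 658 CPM.

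Lum, which spaces collagen fibrils in the cornea and skin, peaked in a medullary subtype, unlike Dcn. It was highest in MedFb1b, at 2176 and 2152 CPM, followed without overlap by MedFb1a at a mean of 2117 CPM. CapFb1b (mean 1802 CPM) and CapFb1a (mean 1768 CPM) came next and overlapped each other. Lum was lowest among fibroblasts in CapFb4, at 703 and 772 CPM. Its means in Mes, Pc and VSM were 29.7, 35.1 and 102.7 CPM, so that Mes carried Dcn at a fibroblast level but Lum near that of Pc.

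Bgn, a close relative of Dcn that also acts on Toll-like receptors when released, was highest in MedFb2a at 4360 and 4569 CPM. MedFb2b (mean 3956 CPM) and CapFb2a (mean 3862 CPM) came next and overlapped each other. CapFb4 held 634 and 853 CPM, and the fibroblast means spanned 6.01-fold. Unlike Dcn and Lum it was plain in mural cells, at 1024 and 1189 CPM in Pc and at 827 and 1146 CPM in VSM, which overlapped each other, and VSM also overlapped CapFb4. Its fibroblast low point was therefore the subtype in which Ogn and Aspn were highest.

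Aspn, which binds collagen and transforming growth factor β, was highest in CapFb4 at 911 and 1183 CPM, ahead of CapFb2b (mean 694 CPM) and VSM (684 and 646 CPM), which overlapped. Pc followed at 570 and 645 CPM. CapFb1b held 57.7 and 61.2 CPM, and the fibroblast means spanned 17.6-fold. Capsular fibroblasts gave 57.04% of its UMIs at W4, VSM 14.7% and Pc 12.4%, from 32.0, 10.9 and 13.7% of the cells.

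Ogn, a corneal and bone proteoglycan also called mimecan, had the widest spread of means over fibroblasts among the 7 members detected in all 11 subtypes. It held 1206 and 1099 CPM in CapFb4 and 1185 and 981 CPM in CapFb2b, which overlapped. MedFb2a held 12.2 and 17.2 CPM, 78.3-fold below CapFb4. Capsular fibroblasts gave 91.8% of its UMIs and medullary fibroblasts 4.52%, against 63.1 and 31.9% for Dcn and 42.7 and 47.8% for Bgn. MedFb2b stood apart from the other medullary subtypes, at 238 and 295 CPM.

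Prelp, which links basement membranes to the collagen around them, was at 411 to 498 CPM (means) in the 4 medullary subtypes and more unequal in the capsule. The highest means were 498 CPM in MedFb1b, 490 CPM in CapFb1a, 489 CPM in CapFb1b and 473 CPM in MedFb2a, and each overlapped the next. Of the 7 capsular subtypes, CapFb1c (347 CPM), CapFb2a (299 CPM), CapFb2b (189 CPM), CapFb4 (145.95 CPM) and CapFb3 lay below all medullary means. CapFb3 was lowest at 120.2 and 136.1 CPM. VSM reached 319 and 321 CPM and Pc 84.9 and 88.4 CPM.

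Podn, named after the podocytes of the kidney, followed Dcn at a lower level. It held 207 and 198 CPM in CapFb1a and 206 and 196 CPM in CapFb2a, which overlapped, and 44.6 CPM (mean) in MedFb1a, the lowest fibroblast subtype. Capsular fibroblasts gave 72.8% of its UMIs.

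Fmod, a tendon proteoglycan that binds collagen, was the only member of the 8 whose highest level was outside fibroblasts. It held 127.2 and 85.3 CPM in Mes, 49.1 and 81.5 CPM in VSM and 28.8 and 39.3 CPM in CapFb2a. Of its UMIs at W4, 38.3% lay in VSM, 27.5% in Mes and 25.9% in capsular fibroblasts. In CapFb4, EnVL and NCC it was at 0 UMIs, where a count of 0 allows up to 3 UMIs.

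UMIs of several members were also counted in endothelial droplets. In EnC, the level in the 2 W4 libraries was 4.14 and 4.36% of the fibroblast level for Dcn, 4.64 and 4.15% for Lum, 3.68 and 4.50% for Ogn and 3.45 and 6.63% for Podn. For Bgn the share was 5.70 and 9.003%, for Aspn 8.39 and 10.7%, and for Prelp 11.9 and 15.5%, while Fmod had 0 and 2 UMIs. In EnA the share of Dcn was 1.67 and 1.69%, and in EnVL 1.11 and 1.32%. In the sorted CD31+ endothelium of the bulk data, the medians at W4 were 2.35 CPM for Dcn and 0.0391 CPM for Lum, beside 658 CPM for Dcn in EnC. The droplet values were not corrected for free RNA. With each cell thinned to 2000 UMIs, 47.6% of EnC cells still held a Dcn UMI (exact 95% interval 43.1 to 52.1%, counting error only; 78.3% before thinning at a median of 5370 UMIs), beside 100% of CapFb1a cells (98.6 to 100%; median 14328 UMIs).

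Likeness over the 19 subtypes was taken from log2(CPM + 1) averaged over the libraries of all ages, and not from W4 alone. Dcn and Podn had the most alike levels of any pair of members (Pearson r = 0.949). Ogn and Podn (0.887) and Dcn and Lum (0.871) followed, and Lum and Fmod were least alike (-0.25). The chromosomal neighbours were thus alike in the case of Dcn and Lum, less so for Ogn and Aspn (0.521), and not for Prelp and Fmod (-0.02). Among 5796 other genes, those most alike to each member were Fbln1 (0.981), Medag and Adam33 for Dcn, Pdgfra (0.985), Ctsk and Penk for Lum, and Lix1l (0.936), Wisp1 and Cygb for Bgn. They were Loxl1 (0.957), Gpc3 and Arsi for Ogn, Cdh3 (0.902), Fabp3 and Syne2 for Fmod, Fcgrt (0.905), Plac8 and Agtrap for Prelp, Galnt16 (0.924), B3galnt1 and Snx18 for Aspn, and Cdh11 (0.955), Boc and Adam33 for Podn. The 19 points share their libraries, and subtypes of 1 class are alike in most genes. MedFb2b entered with 6 libraries, none of E12.5 or E13.5, and Mes with 7, so differences in age makeup also enter.

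From E12.5 to W4 the members differed in when their levels climbed. Dcn and Lum were both low at E12.5 and far higher at E13.5, Bgn changed less between these ages, and Prelp and Podn had medians under 1 CPM at both. The median of the fibroblast subtype means was 19.7 CPM at E12.5, 744 at E13.5, 4577 at E16.5, 6018 at P0 and 15906 at W4 for Dcn. For Bgn the same medians were 186, 251, 1026, 1389 and 2838 CPM, and for Lum 33.5, 690, 1101, 1385 and 1606 CPM. At E16.5 Lum was thus nearer to its W4 level than Dcn or Bgn were. For Prelp the medians were 0, 0.429, 44.0, 74.3 and 411 CPM, and for Podn 0, 0.560, 4.99, 18.7 and 144.3 CPM. Ogn passed from 13.9 CPM through 59.0, 267 and 296 to 589 CPM. For Aspn the medians were 193 CPM at E16.5, 212 CPM at P0 and 191.99 CPM at W4, over subtypes that moved in both directions.

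**Figure D2:**
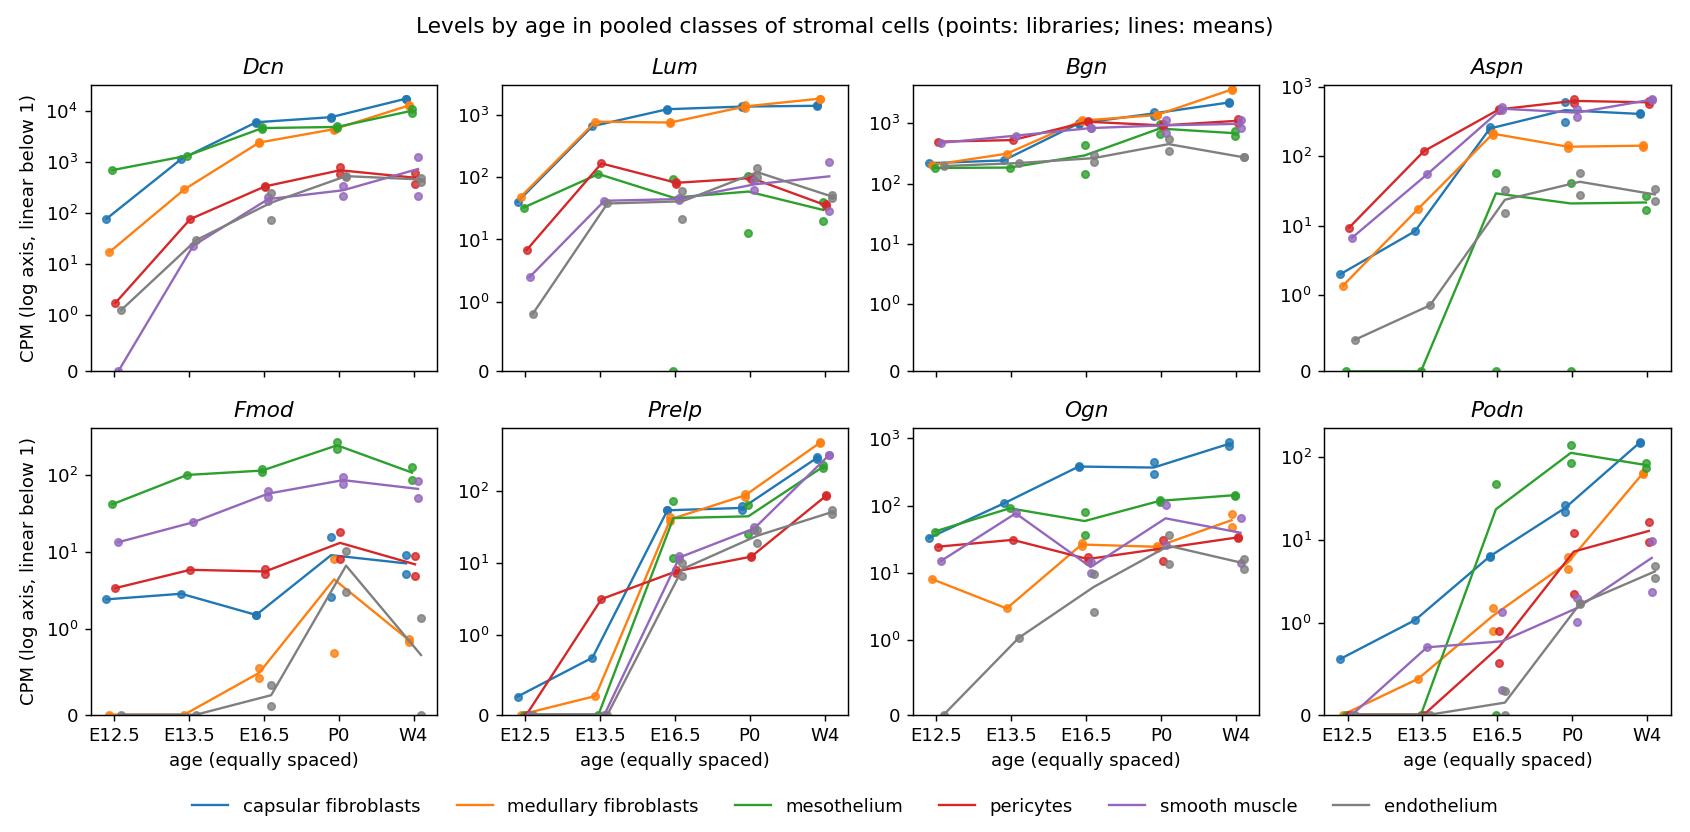
Level of each gene in CPM (log axis, linear below 1) at the 5 ages, drawn at equal spacing, with points for libraries and lines for means in 6 cell classes. Each class pools the cells of its subtypes, so shifts in their mix between ages also enter. Prelp goes from 58.4 to 293 CPM in capsular fibroblasts between P0 and W4 and Podn from 24.1 to 149.2 CPM, while the mean of Aspn goes from 254 to 467 CPM in capsular and from 214 to 138.3 CPM in medullary fibroblasts between E16.5 and P0.

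The embryonic levels differed between subtypes. In CapFb1a, Dcn was at 88.1 CPM at E12.5 and 734 CPM at E13.5, and at 5292 and 5414 CPM at E16.5. In CapFb4 it was already at 1525 CPM at E13.5 and at 9755 and 9911 CPM at E16.5, above every other fibroblast subtype, and at 12088 and 11802 CPM at W4. In MedFb2a it was at 124.8 CPM at E13.5 and at 1294 and 1424 CPM at E16.5. The spread of Dcn over fibroblast subtypes narrowed from 16.3-fold at E13.5 to 7.24-fold at E16.5, 4.33-fold at P0 and 2.17-fold at W4. At E12.5 and E13.5 a single library stands for each age, and CapFb4 held 6 cells at E12.5.

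Counted by cells, 22.6% of CapFb1a cells held a Dcn UMI at E12.5 (exact 95% interval 18.8 to 26.8%, median 12527 UMIs), or 9.55% after thinning to 2000 UMIs (6.97 to 12.7%). For Podn in CapFb1b the share rose from 18.9% at P0 to 75.5% at W4, or from 2.70% (1.93 to 3.67%) to 30.98% (26.3 to 35.98%) after thinning, beside 0.602% in EnC at W4 after thinning (2.11% before, median 5370 UMIs). These intervals cover counting error within the pooled cells only.

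Tested over all ages, 118 fits of a member in a subtype were called, where 55.3% of all genes in the 17 subtypes were called. In fibroblasts it was 82 of 87, against 57.1% of all genes. The cells of E16.5, P0 and W4 came from a pair of thymi per age, and the labels do not tie a thymus to a library, so p-values measure the spread between these libraries, and the unreplicated ages E12.5 and E13.5 were assumed to vary like the rest.

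Between E16.5 and P0, members mostly rose, but Aspn parted between capsule and medulla. In the 11 fibroblast subtypes 44 of 87 fits were higher at P0 and 8 lower, where 6.58% of all genes were higher and 5.46% lower. The 52 calls compare with 12% of all genes called. Over all 17 subtypes 72 fits of a member were called, against 12.6% of all genes, and 34 were called without E16.5 replicate 1 and 44 without E16.5 replicate 2.

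Dcn rose in 8 of 11 fibroblast subtypes by 0.29 to 0.91 on the log2 scale (SE 0.05 to 0.11), Prelp in 8 by up to 1.40, with a fall in CapFb4 (log2 change -0.66), and Podn in 9 by 1.26 to 2.91 (SE 0.18 to 0.49). Lum rose in all 4 medullary subtypes by 0.61 to 0.76 (SE 0.06 to 0.11), but in 1 of 7 capsular ones, CapFb1b (0.34), and fell by 0.24 in CapFb4. Aspn rose in 4 of 7 capsular subtypes by 0.65 to 0.94 (SE 0.10 to 0.22) and fell in 4 of 4 medullary ones, with log2 changes of -1.11 to -0.59 (SE 0.07 to 0.17), where 5.98% of all genes were higher in capsular and 6.99% lower in medullary subtypes. The highest adjusted p among these calls of Aspn was 0.0442. In MedFb2a, Aspn went from 354 and 344 CPM to 261 and 254 CPM, while in CapFb2a it went from 494 and 507 CPM to 1098 and 759 CPM. The groups overlapped in neither. In CapFb1c they overlapped, at 106.3 and 133.2 CPM and then 259 and 128.5 CPM, and the call there (log2 change 0.68) was lost with DESeq2, with scaling by library totals, without P0 replicate 1 (0.11, adjusted p = 0.596) and without either E16.5 or either W4 library (0.52 to 0.87). Whether the change of Aspn differs between capsule and medulla was not tested in 1 model.

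Ogn also fell in part, with a log2 change of -1.21 in MedFb1b and -0.31 in CapFb1b, and it rose by 1.23 in MedFb2a. Bgn rose in 5 capsular subtypes and in MedFb2a, and its level in Pc fell by 0.39. In the pooled fibroblasts, from E16.5 to P0, the 3 erythroid markers went from 385 to 704 CPM to 181.8 to 276 CPM, the 3 proliferation markers from 177 to 194 to 72.1 to 105 CPM, the 3 smooth muscle markers from 154.9 to 156.8 to 209 to 375 CPM and the 3 medullary markers from 507 to 519 to 813 to 889.6 CPM, and their part was not tested. With TMM scaling the median log2 change of all genes lay between -0.09 and 0.05 in the fits from E16.5 to P0 and from P0 to W4, bulk included, and scaling by library totals put it at 0.20 in Pc here and at -0.19 in Ly51+gp38- and -0.22 in gp38+CD26- cells of the bulk data.

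Between P0 and W4, Dcn, Prelp and Podn rose in every one of the 11 fibroblast subtypes, Bgn in 10, Ogn in 9, Lum in 6, Aspn in 3 and Fmod in 2, while Lum and Aspn each fell in 2. Of 87 fits, 63 were higher at W4 and 4 lower, where 16.4% of all genes were higher and 15.8% lower, and the 67 calls compare with 32.2% of all genes called. Over all 17 subtypes, 78 fits of a member were called, 70 of them higher, against 27.6% of all genes. The median log2 change over the 87 fits was 1.01.

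Podn changed most among the members that were called throughout. In CapFb1a it went from 39.5 and 31.1 CPM at P0 to 207 and 198 CPM at W4, and in MedFb2a from 2.56 and 2.65 to 57.8 and 51.3 CPM. The groups were far apart in both. Its log2 changes were 1.61 to 4.35 over the 11 subtypes (SE 0.13 to 0.36, highest adjusted p = 0.000713), largest in MedFb2a and lowest in CapFb4. In Mes it was already at 85.3 and 139.02 CPM at P0, in libraries of 228 and 7 Mes cells, and at 74.6 and 85.3 CPM at W4.

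Prelp went from 72.5 and 94.6 to 509 and 472 CPM in CapFb1a and from 100.4 and 93.8 to 496 and 499.6 CPM in MedFb1b. Its log2 changes in fibroblasts were 1.26 to 3.43 (SE 0.07 to 0.18, highest adjusted p = 8.95e-05). It was also the member with the broadest rise outside fibroblasts, called in VSM (28.5 and 32.2 to 319 and 321 CPM, log2 change 3.33), in Pc (12.2 and 12.3 to 84.9 and 88.4 CPM, 2.62), in Pr (1.81) and in EnC (1.31).

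Dcn went from 7051 and 6681 to 19806.5 and 19486 CPM in CapFb1a and from 2792 and 2876 to 8845 and 10145 CPM in MedFb2a. Its log2 changes were 0.44 in CapFb4 to 1.74 in MedFb2a (SE 0.04 to 0.21, highest adjusted p = 0.000971). In Pc it fell by 0.68. As Dcn makes up most of the family's UMIs, the summed level of the 8 genes reached 26202 CPM in CapFb1c and 25940 CPM in CapFb1a at W4, of which Dcn gave 75.7% in CapFb1a, and 59.0% in MedFb2a. These shares are of 3' UMIs, which count a transcript once whatever its length.

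Bgn rose in 10 of 11 fibroblast subtypes by 0.43 to 1.55 (SE 0.07 to 0.14), from 1495 and 1540 to 4360 and 4569 CPM in MedFb2a. CapFb4 was the exception, at 786 and 850 CPM at P0 and 634 and 853 CPM at W4. Ogn rose in 9 by 0.61 to 2.04 (SE 0.07 to 0.24), in all 7 capsular subtypes and in MedFb1b and MedFb2b. In MedFb2a Ogn held 17.04 and 8.66 CPM at P0 and 12.2 and 17.2 CPM at W4, and the groups overlapped.

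Lum and Aspn moved in both directions. Lum rose in 6 fibroblast subtypes by up to 0.67 and fell in CapFb4 (log2 change -0.86, from 1541 and 1320 to 703 and 772 CPM) and in CapFb2b (-0.30). It also fell in Pc, from 101.3 and 91.6 to 33.8 and 36.4 CPM, and in EnVL, from 84.4 and 54.98 to 19.7 and 19.3 CPM. Aspn rose in CapFb1b (log2 change 1.10, from 32.8 and 22.6 to 57.7 and 61.2 CPM), in MedFb1b and MedFb2b and in VSM (0.57), and fell in CapFb2a (-0.71, from 1098 and 759 to 539 and 582 CPM) and MedFb2a (-0.40). Fmod rose in CapFb1c (1.88) and in CapFb2a (0.95, from 20.6 and 15.9 to 28.8 and 39.3 CPM) and was not called in the other 8 fibroblast subtypes that tested it, the median log2 change of all 10 being -1.81. At P0 the higher library of Fmod was at 26.1 CPM in CapFb1a, 11.5 CPM in CapFb1b and 11.4 CPM in MedFb1a. The other P0 library was far lower in each, so the P0 level there rests on 1 library, and the cause was not tested. Bgn in EnA fell from 1562 and 386 CPM at P0 to 231 and 138.9 CPM (log2 change -2.47), the P0 libraries themselves being far apart.

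**Figure D3:**
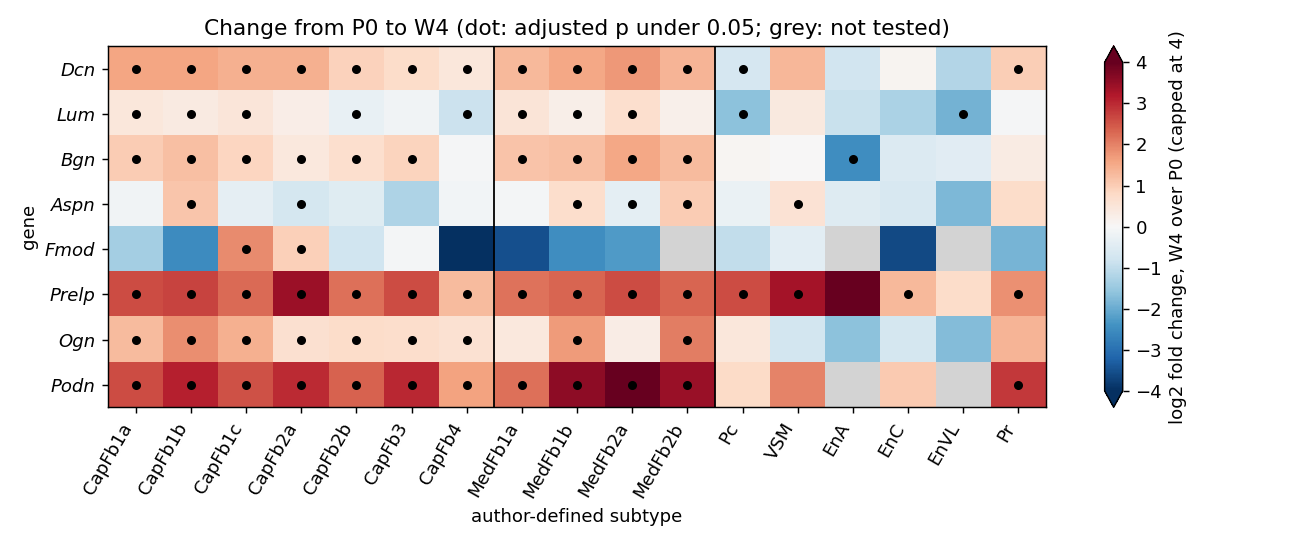
Log2 fold change of each gene from P0 to W4 in 17 subtypes, colours capped at 4 in either direction, with a dot where the adjusted p is under 0.05 and grey where the gene was not tested. Dcn, Prelp and Podn carry a dot in all 11 fibroblast subtypes, and Lum and Aspn show both colours.

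Other markers moved between the same ages. Summed over the pooled fibroblasts, the 3 erythroid markers lay at 181.8 to 276 CPM at P0 and 1249 to 2001 CPM at W4, the 3 leukocyte markers at 5.85 to 12.1 and 16.6 to 30.1 CPM, and the 3 proliferation markers at 72.1 to 105 and 29.1 to 30.4 CPM, all 9 being detected at both ages. Their part in the results was not tested. The 3 pericyte markers lay at 344 to 405 CPM at P0 and 163.3 to 248 CPM at W4, the 3 capsular markers at 232 to 339 and 2129 to 2144 CPM, and the 3 medullary markers at 813 to 889.6 and 1806 to 1914 CPM.

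Genes that work with the family, from fixed lists, are set here against 16.4% of all genes higher and 15.8% lower between P0 and W4 over the 11 fibroblast subtypes. Of other small leucine-rich proteoglycans, 28 of 56 fits were higher and 9 lower. Ecm2 rose in 11 of 11 subtypes with a median log2 change of 1.42 and Omd (osteomodulin) in 10 of 11 (2.15), whereas Kera (keratocan) fell in 8 of 10. Kera lies 34.2 kb from Lum, which rose in 6 and fell in 2 of 11 subtypes, and the difference between them was not tested. Of the collagens the family binds, 35 of 110 were higher and 26 lower. Col1a2 rose in 7 and fell in 2 subtypes, Col1a1 rose in 4 and fell in 4, and Col12a1 fell in 9. Of the enzymes of glycosaminoglycan chains, 41 of 226 were higher and 42 lower, shares near those over all genes, with Chst2 lower in 11 and Chst12 higher in 10. Of proteases that cleave the family or its partners, 41 of 73 were higher and 10 lower, with Mmp2 (median 1.14) and Adamts5 (1.14) higher in all 11. Of receptors and growth factors, 56 of 140 were higher and 21 lower, with Lrp1, an uptake receptor for decorin, higher in 11 (median 1.64), Egfr in 9 and Tlr2 in 8, and Cd44 lower in 8. Between E16.5 and P0 the counts higher and lower were 12 and 4 of 56 for other proteoglycans, 29 and 8 of 110 for collagens, 32 and 8 of 226 for chain enzymes, 25 and 7 of 73 for proteases and 36 and 8 of 140 for receptors, where 6.58% of all genes were higher and 5.46% lower. The members themselves had subtype medians of 0.20 to 1.42 between P0 and W4.

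The bulk libraries gave a second measure of the change from P0 to W4, in sorted populations and with 6 libraries a group. In bulk, fewer cells of a type and less RNA per cell cannot be told apart. Levels are given as lowest, median and highest of the libraries, without the shallow one.

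In gp38+CD26+ cells, which bear the capsular marker CD26, Dcn was at 11674, 12574 and 13216 CPM at P0 and at 18992, 19931 and 23139 CPM at W4, without overlap (log2 change 0.84, SE 0.12, adjusted p = 0.000520). Prelp passed from 289, 361 and 537 CPM to 1065, 1103 and 1988.5 CPM (1.90, SE 0.21, adjusted p = 7.95e-05), and Podn from 0, 7.43 and 14.2 CPM to 60.7, 69.4 and 113.1 CPM (3.68, SE 0.94, adjusted p = 0.0211). Neither overlapped. Fmod, at 0, 4.58 and 10.8 CPM at P0, reached 18.1, 52.0 and 92.7 CPM (3.66, SE 1.06, adjusted p = 0.0391). Ogn (0.97), Aspn (1.33) and Bgn (0.48) also rose, while Lum, at 2878, 3413 and 5329 CPM at P0 and 3098, 3667 and 4170 CPM at W4, overlapped (0.05, SE 0.17, adjusted p = 0.892). Thus 7 of 8 members were called, all higher, where 13.2% of all genes were called. With the shallow library included, 2 of 8 were called. Fmod lost its call without W4 replicate 3, 4, 5 or 6, left out in turn, and Bgn without W4 replicate 3 or 6.

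Other cell types moved in the same sort. The 3 mesothelium markers summed to 0 to 325 CPM at P0 and 438 to 5181 CPM at W4 in gp38+CD26+ cells, and the 3 capsular markers to 1077 to 1409 and 8191 to 15678 CPM. The erythroid markers were at 0.0933 to 2.49 and at 921 to 2362 CPM, and the 3 pericyte markers at 77.9 to 178 and at 6.56 to 39.7 CPM. The part of these shifts in the result was not tested.

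The gp38+CD26- cells held, by the paper's account, mostly medullary fibroblasts but CapFb1 cells as well. In gp38+CD26- cells Dcn passed from 6612, 7623 and 8136 CPM to 16489.7, 18478 and 21182 CPM (log2 change 1.46, SE 0.10, adjusted p = 1.50e-07). Prelp passed from 404, 462 and 650.02 CPM to 2203, 2736 and 3804 CPM (2.67, SE 0.17, adjusted p = 1.18e-07), and Bgn from 875, 1035 and 1204 CPM to 2758, 3279.9 and 3754 CPM (1.79, SE 0.11, adjusted p = 5.31e-08). All 3 were apart. Podn rose from 0, 2.54 and 15.9 CPM to 36.1, 63.7 and 85.7 CPM (3.91, SE 1.05, adjusted p = 0.0138), and Lum by 0.51 (SE 0.11, adjusted p = 0.00352). Ogn, Aspn and Fmod were not called, with log2 changes of -0.78, -0.45 and 0.77. The 5 of 8 called were all higher, where 24.3% of all genes were called. Ogn depended on the title prefix of the libraries: at P0 it was at 66.2 to 97.0 CPM in the TXCK and 145 to 236 CPM in the DFCK libraries, and at W4 at 85.5 to 164.996 and 14.8 to 43.6 CPM. The medullary markers summed to 2032 to 3135 CPM at P0 and 6816 to 8070 CPM at W4, the erythroid markers to 0 to 0.457 and 20.2 to 2636 CPM, the 4 fibroblast markers to 20862 to 33327 and 13923 to 19451 CPM, and the proliferation markers to 64.03 to 204 and 21.5 to 58.1 CPM, without overlap, and their part was not tested.

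In Ly51+gp38- mural cells, Prelp rose from 89.4, 120.1 and 154 CPM to 1452, 1896 and 2124 CPM (log2 change 4.05, SE 0.18, adjusted p = 1.44e-08), the steepest change of a member in the 4 populations. Fmod rose from 33.2, 58.5 and 114 CPM to 85.1, 146.4 and 190.2 CPM (1.29, SE 0.30, adjusted p = 0.0113), with overlap. Aspn, at 1970.2, 2341 and 2484 CPM at P0, was at 1323, 1673 and 1968 CPM at W4, without overlap but not called (-0.30, adjusted p = 0.0871). Thus 2 of 7 members were called, where 11.9% of all genes were. Dcn at W4 was at 289 to 499.8 CPM in the DFCK and 1008 to 2433 CPM in the TXCK libraries, and Lum likewise at 20.6 to 61.1 and 183 to 483 CPM, so their levels here rest on that split. The 3 pericyte markers summed to 29046 to 39714 CPM at P0 and 83493 to 107553 CPM at W4, the 3 smooth muscle markers to 1294 to 2298 and 5088 to 6911 CPM, the 3 leukocyte markers to 0 to 24.4 and 40.03 to 178 CPM, the 3 erythroid markers to 0.0631 to 1.76 and 3.47 to 419 CPM, the 3 medullary markers to 353 to 732 and 1014 to 1468 CPM, the 4 fibroblast markers to 4378 to 9661 and 2357 to 3889 CPM, and the 3 proliferation markers to 175.6 to 326 and 14.3 to 68.03 CPM, all without overlap. Their part in the rises of Prelp and Fmod was not tested.

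In CD31+ endothelium Dcn and Lum were near 0, with medians of 0.559 and 0.899 CPM at P0 and 2.35 and 0.0391 CPM at W4, and Fmod and Podn were at 0 counts in all 12 libraries, where a count of 0 allows up to 3 a library. Bgn was at 48.5, 122.9 and 323 CPM at P0 and 206, 265 and 359 CPM at W4, and Prelp at 4.85, 98.3 and 235 CPM and then 203, 261 and 375 CPM. In edgeR 0 of 3 members tested were called, where 5.09% of all genes were. All 3 had an unadjusted p under 0.05, as did 17.8% of all genes, and higher values at W4, Aspn with 3.72 (SE 1.31, adjusted p = 0.137), Prelp with 1.41 (adjusted p = 0.177) and Bgn with 0.95 (adjusted p = 0.162). In the same libraries the 3 pericyte markers summed to 25.5 to 146.6 CPM at P0 and 555 to 1766 CPM at W4, the 3 smooth muscle markers to 0.411 to 16.2 and 30.1 to 106.1 CPM, and the 3 erythroid markers to 5.97 to 258 and 231 to 6064 CPM, and their part was not tested.

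**Figure D4:**
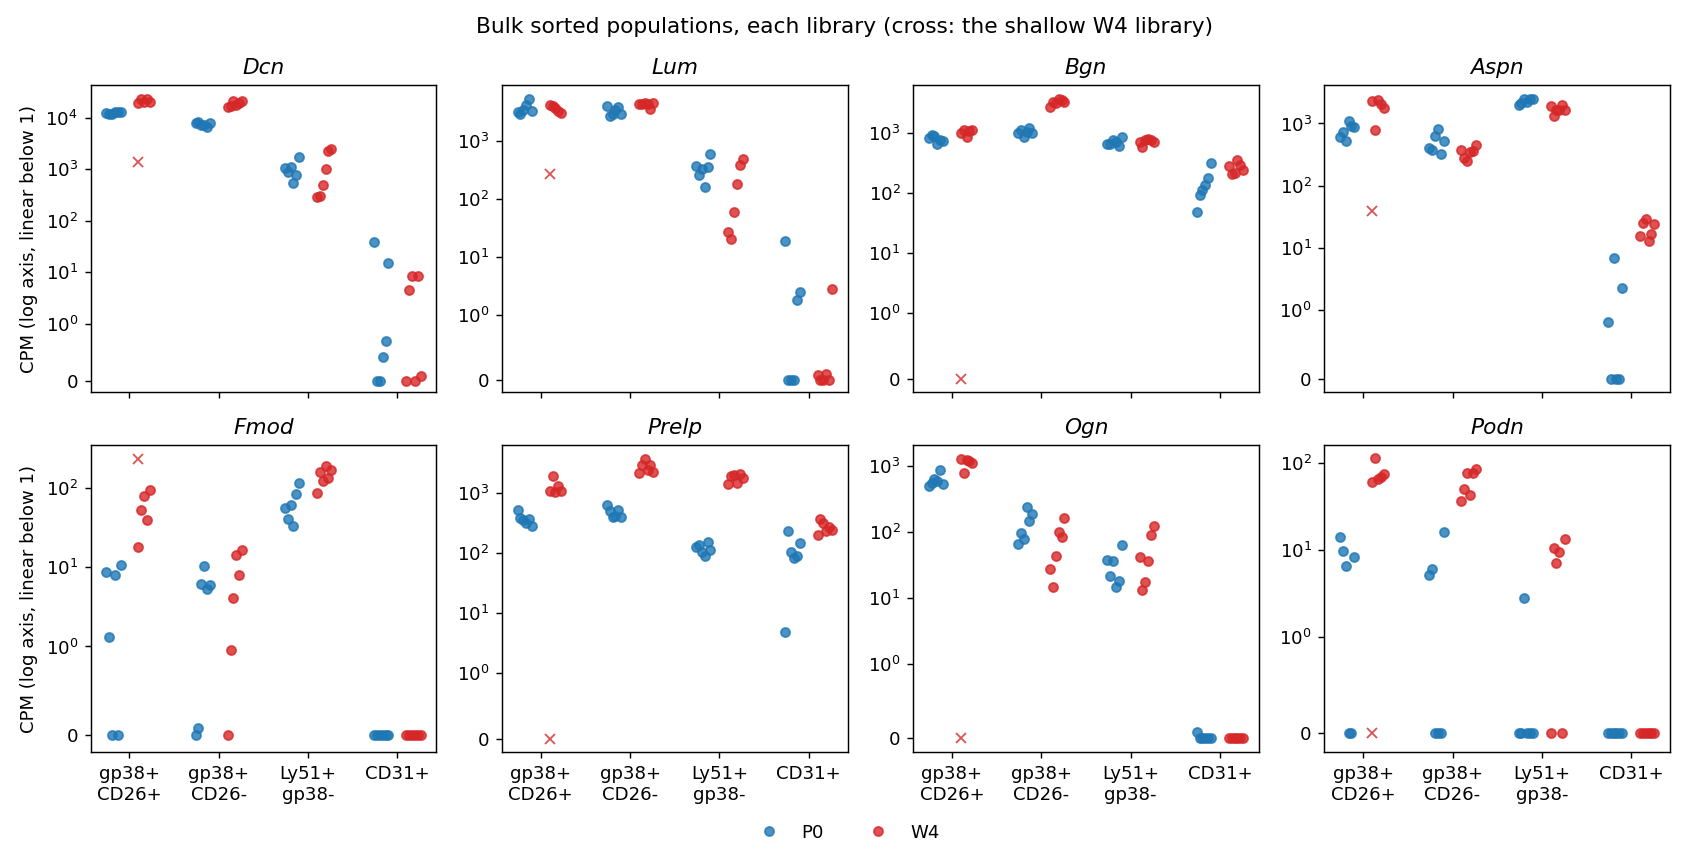
Level of each gene in CPM (log axis, linear below 1) in the libraries of 4 sorted populations, P0 in blue and W4 in red, with a cross for the shallow library. The W4 points of Prelp lie above the P0 points in the 3 populations other than CD31+, and those of Lum overlap in gp38+CD26+.

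The fibroblast populations differed from each other in Ogn at both ages and in more members at W4. At P0, Dcn was higher in gp38+CD26+ than in gp38+CD26- cells by 0.80 (SE 0.10, adjusted p = 8.08e-06) and Ogn by 2.23 (SE 0.42, adjusted p = 0.00198), and these were the 2 of 8 called, where 6.75% of all genes were. With the shallow library in the shared fit, 1 was called. At W4, 4 of 8 were called, where 10.2% of all genes were. Ogn was higher by 3.99 (SE 0.46, adjusted p = 1.84e-06) and Aspn by 2.495 (SE 0.27, adjusted p = 8.91e-07), and Bgn and Prelp were lower, with log2 differences of -1.62 (SE 0.12, adjusted p = 1.86e-09) and -1.06 (SE 0.20, adjusted p = 0.000983).

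The difference itself changed from P0 to W4 in 3 of 8 members, against 4.99% of all genes. It shrank for Dcn (interaction -0.61, SE 0.14, adjusted p = 0.0105), which rose more in gp38+CD26- cells, moved towards those cells for Bgn (-1.30, SE 0.16, adjusted p = 2.77e-05), and grew for Aspn (1.79, SE 0.37, adjusted p = 0.00597). With the shallow library included, 0 of 8 were called. For Ogn the interaction was 1.76 (SE 0.59, adjusted p = 0.0894) and for Prelp -0.77 (adjusted p = 0.119). The marker sums of both populations also shifted from P0 to W4, as given above, and their part in the interaction was not tested.

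Mural cells held a different mix of the family than fibroblasts. Against the mean of the gp38+ populations, Ly51+gp38- cells at P0 were lower in Dcn (-3.36, SE 0.19), Lum (-3.44, SE 0.24), Ogn (-3.28, SE 0.36), Prelp (-1.92, SE 0.16) and Bgn (-0.47, SE 0.10), and higher in Aspn (1.74, SE 0.18, adjusted p = 8.75e-07) and Fmod (3.67, SE 0.88, adjusted p = 0.00553). These are 7 of 8, where 17.1% of all genes were called. At W4 again 7 of 8 were called, against 28.4% of all genes, with Aspn (1.01, SE 0.18) and Fmod (2.75, SE 0.59) higher and Dcn, Lum, Ogn, Podn and Bgn lower. Prelp was not called at W4 (-0.16, SE 0.17, adjusted p = 0.566). With the shallow library included, 7 of 8 were called as well. The 10 collagens of the fixed list were lower in mural cells at both ages, all 10 of them, Col1a1 with -3.28 at P0 and -3.71 at W4, and Mmp2 was lower with -3.05 and -4.04. The mesothelium markers were at 0 to 2.44 CPM at P0 and 0 to 6.73 CPM at W4 in Ly51+gp38- cells, Msln at 0, and their part in the level of Fmod was not tested.

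In thymic epithelium, cTEC changed with age. Dcn was at 12.52, 50.2 and 122.8 CPM in cTEC at P0 and 317, 595 and 1057 CPM at W4, Prelp at 1.65, 4.54 and 15.7 and then 160.3, 276 and 785 CPM, and Fmod at 0, 0.725 and 7.83 and then 53.0, 74.1 and 215 CPM. None of these overlapped. A test added after seeing the data called 6 of 7 members higher in cTEC at W4, where 22.3% of all genes were called. The values stand beside rises of other cell types' markers, of the mesothelium from 0 to 4.84 to 16.0 to 2314 CPM, of leukocytes from 5.24 to 23.1 to 194 to 787 CPM, of pericytes from 33.99 to 103.6 to 133.7 to 659 CPM, of smooth muscle from 50.7 to 106 to 139.8 to 249 CPM, of endothelium from 0 to 0.969 to 8.86 to 54.4 CPM and of erythroid cells from 0 to 1.13 to 25.9 to 1110.3 CPM. In mTEC at P0 the mesothelium sum was at 837.7 to 1049.5 CPM and the pericyte sum at 2139 to 3351 CPM. At P0 these sums thus differed between cTEC and mTEC, with Upk3b, Kcnj8 and Colec11 at 0 in cTEC. The 4 epithelial markers rose in cTEC from 655 to 1425 to 1616 to 2776 CPM. The 4 fibroblast markers overlapped, at 149.05 to 265 and 129 to 1749 CPM, with Pdgfra at 0 at P0. So did the 3 capsular markers, with medians of 0 CPM at P0 and 23.0 CPM at W4. The 3 collagens of the fixed list with the largest called change were all higher in cTEC at W4, Col1a1 (log2 change 11.5), Col3a1 (5.12) and Col1a2 (3.27). The part of these markers and collagens was not tested. In mTEC Dcn was at 183.9, 229 and 253 CPM at P0 and 98.4, 139.1 and 237 CPM at W4, and in mTEChi and mTEClo the medians at W4 were 118 and 209 CPM.

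Loss of 1 copy each of Tbx1 and Crkl, regulators of pharyngeal and neural crest development, was compared in newborns. The labels could be checked only in part. Tbx1 had 0, 0 and 8 UMIs in the labelled Tbx1+/-Crkl+/- libraries and 13, 6 and 19 in wild type. Scaled to library totals these were 0, 0 and 0.872 CPM against 1.79, 0.441 and 0.605 CPM, which overlapped. Crkl was at 24.1, 23.6 and 26.9 CPM in the labelled and at 23.0, 25.1 and 18.4 CPM in the wild-type libraries. A 3' tag outside the deleted part of a gene checks nothing. Across 18 subtypes 0 of 88 member fits were called, where 0.0481% of all genes were. An unadjusted p was under 0.05 in 21 of the 88, against 6.72% of all genes, and DESeq2 called 0. The lowest adjusted p was 0.0820, for Lum in Pr (-1.25, SE 0.29). Without wild-type replicate 1, 4 were called, 3 of them in CapFb4, and without labelled replicate 2, 2 were called.

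In pooled fibroblasts, 4 of 7 members tested lay lower in all labelled than in all wild-type libraries, where 5.49% of all genes did (12.3% did not overlap in either direction), and 6 of 7 had the lower mean, against 44.1% of all genes. None passed the test. Dcn was at 3799, 3889 and 2549.9 CPM in the labelled libraries and at 3989, 4525 and 6133 CPM in wild type, which did not overlap (log2 difference -0.57, SE 0.31, adjusted p = 0.623). Lum was at 709, 670.4 and 472 CPM against 835, 968 and 1251 CPM, without overlap (-0.77, SE 0.26, adjusted p = 0.441). Aspn was at 236, 217 and 249 CPM against 282, 308 and 399.5 CPM (-0.55, adjusted p = 0.526), and Prelp at 50.6, 53.4 and 38.7 CPM against 59.5, 67.4 and 64.4 CPM (-0.47, adjusted p = 0.559). Bgn (-0.32), Ogn (-0.29) and Podn (0.15) overlapped, and Fmod, at 0 to 2.2 CPM, was not tested. By edgeR 0 of 7 members and 0 of 11897 genes (0%) were called, with an unadjusted p under 0.05 for 3 members and 1007 genes (8.46%), and DESeq2 called 0 members and 11 genes. The wild-type libraries were all deeper per cell, at medians of 2577, 3631 and 4686 UMIs, than the labelled ones, at 2551, 2391 and 2506 UMIs. In the pooled fibroblasts the 4 fibroblast markers summed to 9178 to 9800 CPM (labelled) and 10180.3 to 12861 CPM (wild type), the 3 medullary markers to 359 to 455 and 459.9 to 637 CPM, and the 3 neural crest markers to 6.34 to 10.8 and 1.93 to 5.99 CPM, all without overlap. The 4 epithelial markers summed to 62.2 to 130 CPM in fibroblasts of the labelled and 40.0 to 61.4 CPM in those of the wild-type libraries, and the part of these differences was not tested.

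**Figure D5:**
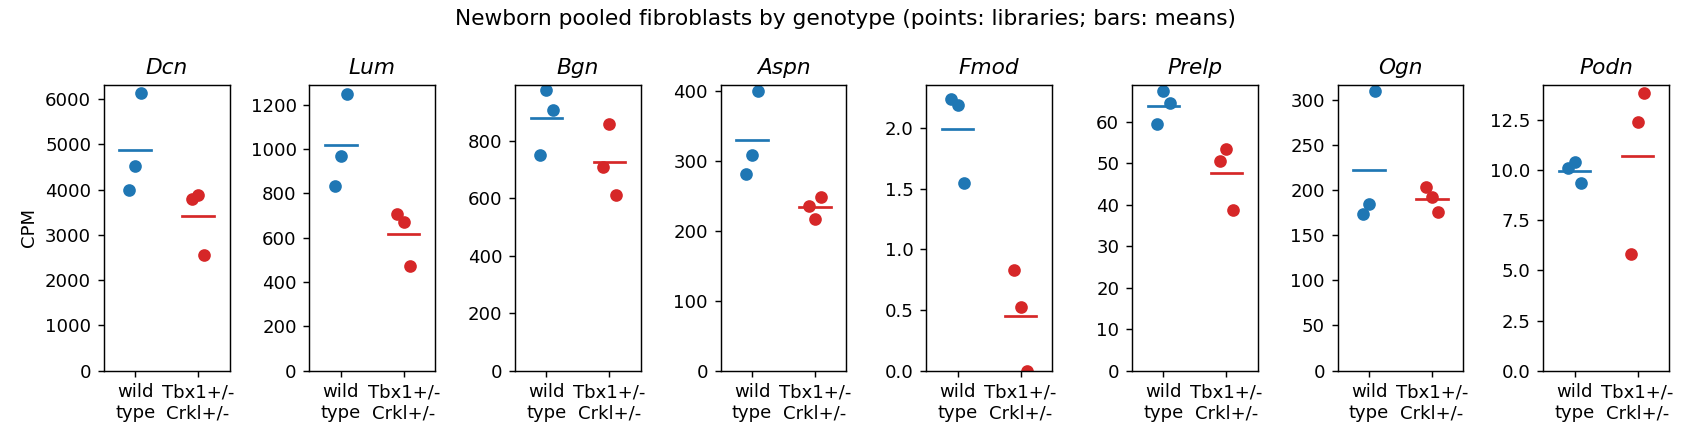
Level of each gene in CPM in fibroblasts pooled per newborn library, points for the 3 wild-type and 3 labelled Tbx1+/-Crkl+/- libraries and bars for their means, each panel on its own axis from 0. Dcn, Lum, Aspn and Prelp show no overlap between the groups, as in 12.3% of all genes, and none of the 8 genes was called.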

How the data were processed

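Expression of the 8 genes was read from 3 deposited data sets. The authors deposited the single-cell data as whole UMI counts per gene and cell, made with Cell Ranger 3.1.0 and not normalized, after removing doublets, contaminating clusters, cells with few genes and cells with many mitochondrial UMIs. Subtype labels are the authors' own, made from the same counts. For the sorted populations, the deposited values are raw read counts for each Ensembl gene, and the submitters' processing notes name STAR 2.5.3a and HTSeq, the build mm10 and also GRCh38. The strand setting of the bulk counting is not given in the sources used here, so whether antisense reads entered the bulk counts of Aspn or Ogn is not known. Their exons share only 7 and 0 bases with those of the antisense Cenpp. Reads of the genes that overlap Podn and Prelp were not examined. Entries of no gene, 7.81 to 16.6% of the bulk reads, were left out.

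UMIs were summed per subtype and library with at least 5 cells for levels and 20 for tests, and libraries were the replicates. edgeR 4.0.16 in R 4.3.3 was used with its quasi-likelihood test after filterByExpr and TMM scaling, with Benjamini-Hochberg adjustment over all genes of a fit and a threshold of 0.05. The SE given with a log2 change is its absolute value divided by the square root of the F statistic, and not a separate estimate of spread. Bulk libraries under 1000000 gene counts were left out of tests. Log2 levels used a pseudocount of 1. Scripts were tested on simulated data. Python 3.11.15, numpy 2.4.6, scipy 1.17.1 and pandas 2.3.3 gave levels, shares and motif matches. Alternatives were DESeq2 1.42.0, no filter on low counts, scaling by library totals, a replicate block, the title prefix as a term, the shallow library included and each library left out (in bulk, the gp38+CD26+ W4 libraries only). Of the lists, at most the 3 genes with the largest called change in a comparison are named, and genes named by their number of subtypes were chosen after their values were seen. Genes most alike to a member had at least 50 CPM in some subtype. The members, the lists and the rules were chosen with earlier results of these data known.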

Additional observations from a re-analysis of the deposited data

Results flagged for a closer look

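In the bulk data, 6 of 74 groups of 5 or 6 libraries held a library far from the others by Dixon's criterion, which chance gives in about 1 of 20 groups. They were Lum at 3635 CPM in gp38+CD26- W4 replicate 5, Ogn at 880.5 CPM in gp38+CD26+ P0 replicate 5, Podn at 113.1 CPM and Prelp at 1988.5 CPM in gp38+CD26+ W4 replicate 3, Prelp at 785 CPM in cTEC W4 replicate 5, and Prelp at 26.01 CPM in mTEC P0 replicate 2.

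The change from P0 to W4 differed between gp38+CD26+ and gp38+CD26- cells by edgeR's interaction test in Dcn (-0.61), Bgn (-1.30) and Aspn (1.79).

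Some members moved in opposite directions in 2 subtypes, and these differences were not tested. From E16.5 to P0, Lum changed by 2.35 in EnA and -0.24 in CapFb4 on the log2 scale, Bgn by 2.48 in EnA and -0.39 in Pc, Ogn by 1.94 in EnC and -1.21 in MedFb1b, Prelp by 1.40 in MedFb2a and -0.66 in CapFb4, and Aspn by 0.94 in CapFb2a and -1.11 in MedFb2b. From P0 to W4, Lum changed by 0.67 in MedFb2a and -1.89 in EnVL, Bgn by 1.55 in MedFb2a and -2.47 in EnA, and Aspn by 1.10 in CapFb1b and -0.71 in CapFb2a. The EnA values of Bgn rest on libraries at 62.6 and 253 CPM at E16.5 and at 1562 and 386 CPM at P0.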

How the results depend on the processing

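Member calls within subtypes numbered 118 over all ages, 72 from E16.5 to P0 and 78 from P0 to W4. All 3 counts stayed within 1.5 times with DESeq2, no filter on low counts, library totals and the replicate block. From E16.5 to P0 and from P0 to W4 they were 55 and 75 with DESeq2, 93 (E16.5 to P0) with no filter, and 77 and 86 with the replicate block. With a library left out they were 114 to 128, 34 to 85 and 74 to 96. Between genotypes the 0 calls became 1 with no filter, 1 with the replicate block and 0 to 4 with a library left out. The 14 bulk calls from P0 to W4 became 9 with the shallow library, 16 with DESeq2, 13 with the title prefix as a term and 12 to 14 with a gp38+CD26+ W4 library left out, the only bulk group of 5. With the shallow library, the calls between the fibroblast populations became 1 in place of 2 at P0, 3 in place of 4 at W4 and 0 in place of 3 for the change of the difference, which was 4 under the replicate block. The highest subtype of each member was also taken from means over all ages, which for Dcn, Bgn and Prelp is not the highest at W4. Ranked by the thinned share of cells, 5 of 8 members kept this all-age highest subtype, against 7 with each library left out. The order at W4 was not checked in this way. Single genes were followed only where called. Of their 2634 values with a library left out, 2423 kept direction and call, 210 lost the call and 1 reversed, Dcn from E16.5 to P0 in EnA, -0.74 (adjusted p = 0.466) without P0 replicate 1, and 4.02 without P0 replicate 2; the cause was not tested.

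The same replicate number correlated at -0.21 to 0.03 over 3 pairs in age-series fibroblasts, -0.53 to 0.24 over 3 pairs in the newborns, and 0.03 to 0.19 and 0.04 to 0.13 over 6 and 5 pairs in bulk at P0 and W4. The bulk values were all above 0, so pairing in bulk is not excluded by them. The labels state no pairing, and the main tests took none, with the replicate block as an alternative. Precision is limited by 2 libraries an age, and at E12.5 and E13.5 by 1. Mes held 2 and 5 cells at E16.5 and 7 in P0 replicate 2, and NCC 7 and 7 at W4.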
